A study of Mus musculus with 36 samples.

Results

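Corexit 9527 and Corexit 9500 are oil dispersants, mixtures of solvents and surfactants that break an oil slick into droplets. Corexit 9527 holds the solvent 2-butoxyethanol with propylene glycol and organic sulfonic acid salts. Corexit 9500 holds the surfactant dioctyl sodium sulfosuccinate with sorbitan derived surfactants, a dipropylene glycol butyl ether and petroleum distillates. The comparison of the 2 dispersants given without oil was made from the left lungs of 12 of the 36 mice of the study, 6 mice a dispersant and 3 of each sex, chosen by their treatment labels and joined from a table of female and a table of male mice. The question was which genes of the lung differ in level when the same volume and dilution of one or the other dispersant is given on the same days.

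All 12 mice were wild-type C57BL/6 mice, bought at 7 weeks and 8 weeks of age at the first dose, with no allele or transgene in any group. Each received 50 microlitres of a dispersant mixed into 40 parts of Hank's balanced salt solution and then diluted 10-fold, on days 0, 7 and 13, and was killed on day 14, 1 day after the last dose. The GEO labels name the dose 0.1 WAF and intratracheal instillation as the route, whereas the methods name oropharyngeal aspiration of a saline accommodated fraction. The 6 saline mice received the salt solution alone and serve as background here, and the 9500+oil and 9527+oil groups, 6 mice each, received the dispersants with MC252 crude oil. Male and female mice sit in separate tables, so sex and any difference in how the tables were made cannot be told apart. The doses were matched by volume of product, not by any component, and tissue was taken at a single time.

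Total counts of the 12 mice ran from 17655655 to 30014986. The lung label held in every one of them: 28 surfactant and alveolar type 2 genes together reached 22100 to 44200 CPM (counts of a gene per 1000000 counts of the mouse) with Corexit 9527 and 29700 to 36600 CPM with Corexit 9500. One library stood apart. In female Corexit 9527 mouse 11, 38.4% of counts fell on the 13 protein-coding genes of the mitochondrial genome, against 5.61% to 11.3% in the other 11 mice, and its log2 ratio of counts on GC-rich over GC-poor genes was -2.68, against -0.29 to 0.53. Female saline mouse 3, with 45.1% and -2.78, and female 9500+oil mouse 14, with 20.7% and -1.84, stood apart in the same way. These mice were kept. Female Corexit 9527 mouse 11 is called female mouse 11 below, and values without it stand beside many of the results. Because whole lung was sequenced, more cells of a type and more RNA per cell cannot be told apart.

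Cells that divide copy their DNA in S phase with the MCM helicase and the polymerases, and in mitosis cyclins and the kinase CDK1 drive the separation of chromosomes by spindle motors and kinetochores. Injured lung epithelium and its macrophages both divide during repair. Macrophages in that setting also make matrix-degrading proteases and secreted chitinase-like proteins. In rodents 2-butoxyethanol is oxidised by alcohol and aldehyde dehydrogenases to butoxyacetic acid, which is known to lyse red blood cells.

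No single gene differed between the dispersants after adjustment. Of 15184 genes tested over both sexes with sex as a covariate (edgeR's quasi-likelihood test with Benjamini-Hochberg adjustment), 0 had an adjusted p under 0.05 (0.00% of those tested), and the lowest adjusted p was 0.794. The unadjusted p was under 0.05 for 319 genes higher with Corexit 9527 (2.10%) and 184 lower (1.21%). DESeq2 also called 0 genes, with 546 higher and 313 lower at an unadjusted p under 0.05. Weighting the mice by library quality with limma's voom called 2, both lower with Corexit 9527, Colq and Kcnk3. A p that misses the threshold does not show that the 2 dispersants act alike. The 95% interval of the log2 fold change lay within -1 and 1 for 8723 genes (57.4%), and the median standard error was 0.285, and for the other genes it reached past -1 or 1. In the male mice alone 0 of 15071 genes passed, with 375 higher (2.49%) and 298 lower (1.98%) at an unadjusted p under 0.05, and DESeq2 called 7. In the female mice alone 0 of 14873 passed, with 156 higher (1.05%) and 67 lower (0.450%), and DESeq2 called 3. Without female mouse 11 edgeR also called 0 genes, with 381 higher (2.47%) and 413 lower (2.68%) at an unadjusted p under 0.05. Unless stated, every fold change below is Corexit 9527 over Corexit 9500 on the log2 scale from the both-sex edgeR fit, with its 95% interval in parentheses. An interval that leaves out 0 has an unadjusted p under 0.05, and the adjusted p was at least 0.794 for every gene. Counts of list members from that fit stand beside shares of 2.10% higher and 1.21% lower over all genes. With 1 mouse left out those shares ran from 0.805% to 4.41% higher and from 0.623% to 2.68% lower.

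Of the 47 gene lists, 22 had members higher at an unadjusted p under 0.05 and none lower, 12 had members lower and none higher, 2 had both and 11 had 0. Most genes of cell division had higher levels with Corexit 9527, although none passed adjustment. Of 100 tested genes of a mitosis list, 89 were higher, and for 20 of them the unadjusted p was under 0.05. Over all genes tested 2.10% were higher at that level, and 0 mitosis genes were lower at it. Their median log2 fold change was 0.47, beside -0.01 over all genes tested. Without female mouse 11 the median was 0.44, with 95 higher and 18 at that level, where 2.47% of all genes were. The count of 20 depended on single mice, and so did the share of all genes that were higher at that level. It was 8 without female Corexit 9500 mouse 8 (0.805% of all genes) or male Corexit 9527 mouse 11 (1.30%), 10 without male Corexit 9500 mouse 9 (1.68%) and 12 without male Corexit 9527 mouse 10 (1.64%). It was 37 without female Corexit 9500 mouse 9 (1.28%), 34 without male Corexit 9527 mouse 12 (3.12%) and 42 with voom (7.46%). In each of these 81 to 98 of the genes were higher. The median was 0.53 in female and 0.51 in male mice, with 3 and 11 members at an unadjusted p under 0.05. Both dispersants were also set beside the same 6 saline mice. With Corexit 9527 the median over saline was 1.21, and 63 of the 100 genes were higher with an unadjusted p below 0.05, where 2.27% of all genes were. With Corexit 9500 it was 0.73 with 44 genes, where 1.29% of all genes were. Without female saline mouse 3 the medians were 1.37 with 82 genes (4.25% of all genes) and 0.85 with 71 genes (3.69% of all genes).

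**Figure D1:**
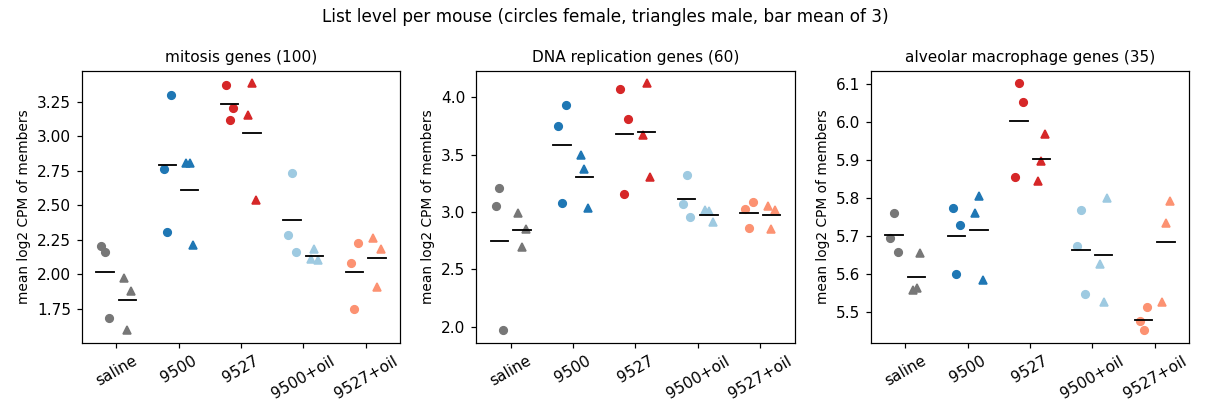
Mean log2 CPM of the tested genes of 3 lists in each mouse (points, female circles and male triangles; bars are means of 3) by treatment. The mitosis genes sit at 2.54 to 3.38 with Corexit 9527 and 2.21 to 3.30 with Corexit 9500, so the groups overlap, and the oil combinations have lower means with mice at 1.75 to 2.73 that overlap both ranges.

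Ccna2 (ENSMUSG00000027715; chromosome 3, 36564865 to 36572150, GRCm38), the cyclin A2 that works in S phase and at mitotic entry, shows how the mice spread. Its level in female mice was 14.9, 12.4 and 24.5 CPM with Corexit 9500 and 28.2, 46.7 and 29.4 CPM with Corexit 9527. In male mice it was 15.7, 19.3 and 11.1 CPM with Corexit 9500 and 28.1, 32.9 and 12.8 CPM with Corexit 9527. The female groups did not overlap, whereas male Corexit 9527 mouse 12 lay among the Corexit 9500 males. The log2 fold change was 0.85 (95% interval 0.25 to 1.44), and the saline mice lay at 4.1 to 15.6 CPM.

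Kif11 (ENSMUSG00000012443; chromosome 19, 37376403 to 37421859), the motor that pushes spindle poles apart, had a log2 fold change of 0.80 (0.21 to 1.40). Its level was 5.37, 4.76 and 7.99 CPM in female and 6.19, 5.63 and 4.31 CPM in male mice with Corexit 9500. With Corexit 9527 it was 9.14, 18.3 and 10.0 CPM in female and 8.15, 10.7 and 4.82 CPM in male mice. The pattern of overlap was that of Ccna2. Female mouse 11 was the highest Corexit 9527 mouse for both genes, and without it the fold changes were 0.71 for Ccna2 and 0.61 for Kif11. Ndc80, the kinetochore protein that holds microtubules, had a log2 fold change of 1.05 (0.24 to 1.87), and female mouse 11 was its highest mouse at 15.6 CPM, against 2.17 to 5.46 CPM in the other 5 Corexit 9527 mice; without that mouse its fold change was 0.68. Arhgap11a, a RhoA GTPase regulator of the dividing cell, had a fold change of 0.68 (0.16 to 1.21). Ttk, a spindle checkpoint kinase, had the largest log2 fold change of the 20 members, 1.18 (0.12 to 2.25).

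Many mitosis genes carry a CCAAT box and, near their start, a cell cycle homology region (CHR). The promoters of Kif11, Arhgap11a and Ndc80 show how such members can differ in these letters. Each is the stretch of 150 bases before the transcription start (RefSeq, GRCm38.p6), 5′ to 3′, with capitals for CCAAT or TTTGAA on either strand.

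Kif11 promoter (chr19:37376232-37376381, plus strand): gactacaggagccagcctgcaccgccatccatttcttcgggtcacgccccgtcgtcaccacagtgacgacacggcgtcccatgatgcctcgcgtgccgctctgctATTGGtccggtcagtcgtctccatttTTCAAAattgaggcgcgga
Arhgap11a promoter (chr2:113848662-113848811, minus strand): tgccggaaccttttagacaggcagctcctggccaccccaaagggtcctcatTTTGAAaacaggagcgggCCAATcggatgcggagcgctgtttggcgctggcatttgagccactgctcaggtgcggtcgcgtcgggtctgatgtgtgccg
Ndc80 promoter (chr17:71526858-71527007, minus strand): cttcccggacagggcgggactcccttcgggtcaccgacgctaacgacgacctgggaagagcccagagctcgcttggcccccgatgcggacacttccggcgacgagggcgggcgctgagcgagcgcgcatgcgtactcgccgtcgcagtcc

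Kif11 and Arhgap11a held 1 of each motif and Ndc80 held 0. Of the mitosis genes tested, 81 had a promoter in the table, from which chromosome 18 was left out. Within 250 bases before the start CCAAT or its complement was in 67.9% of them, against 35.7% of the 11030 tested genes with a promoter and 34.5% of all 27025 promoters. TTTGAA or its complement was in 35.8%, against 11.0% and 16.3%. In 49 DNA replication promoters the shares were 57.1% for CCAAT and 8.16% for TTTGAA, and in 33 of homologous recombination and Fanconi genes 60.6% and 3.03%. A match is a description of letters and not a site that was measured.

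DNA replication genes were mostly higher as well. Of 60 tested, 55 were higher and 8 (13.3%) had an unadjusted p under 0.05, with a median log2 fold change of 0.34. Without female mouse 11 the median was 0.34 and 10 were at that level. With 1 other mouse left out the median was as low as 0.20, with 3 genes, without male Corexit 9527 mouse 11 (1.30% of all genes). The count was 2 without female Corexit 9500 mouse 8 (0.805% of all genes), 4 without male Corexit 9500 mouse 9 (1.68%) or male Corexit 9527 mouse 10 (1.64%), 12 without female Corexit 9500 mouse 9 (1.28%) and 14 without male Corexit 9527 mouse 12 (3.12%). Mcm7 (ENSMUSG00000029730; chromosome 5, 138164583 to 138172422), a subunit of the replicative helicase, was at 30.2, 27.6 and 42.0 CPM in female and 36.6, 31.2 and 27.2 CPM in male mice with Corexit 9500. With Corexit 9527 it was at 56.8, 52.6 and 48.2 CPM in female and 43.2, 62.3 and 30.5 CPM in male mice, and the female groups did not overlap. Its log2 fold change was 0.59 (0.18 to 1.00). Dna2, a nuclease that trims replication intermediates, had 0.70 (0.25 to 1.14). Among 45 homologous recombination and Fanconi genes, 36 were higher and 7 (15.6%) at that level, with a median of 0.38, and 0.33 without female mouse 11. That count was 1 without male Corexit 9527 mouse 11 (1.30% of all genes), 2 without female Corexit 9500 mouse 8 (0.805%), 3 without female Corexit 9500 mouse 7 (2.23%) or male Corexit 9500 mouse 9 (1.68%) and 11 without male Corexit 9527 mouse 12 (3.12%), and the medians were 0.30 to 0.45. Fanci, which marks stalled forks together with Fancd2, had 0.87 (0.22 to 1.52). Chek1, a checkpoint kinase, had 0.92 (0.18 to 1.65). Without female mouse 11 the values were 0.58 for Mcm7, 0.58 for Dna2, 0.94 for Fanci and 0.86 for Chek1. A list of 11 genes measured by PCR was higher throughout, 2 of them at that level, with a median of 0.61. These genes were picked on the same mice, so their direction is not independent evidence. Leaving out 1 mouse gave 9 to 11 higher genes, 0 (without male Corexit 9527 mouse 11) to 4 (without male Corexit 9527 mouse 12) of them at that level. Of the p53 target genes 23 of 42 were higher, 3 at that level (2.10% of all genes), and the median was 0.02, with either sign when 1 mouse was left out. The count of 3 was 6 without female Corexit 9527 mouse 10 (4.41% of all genes) and 1 without female Corexit 9500 mouse 8 (0.805%) or 9 (1.28%).

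**Figure D2:**
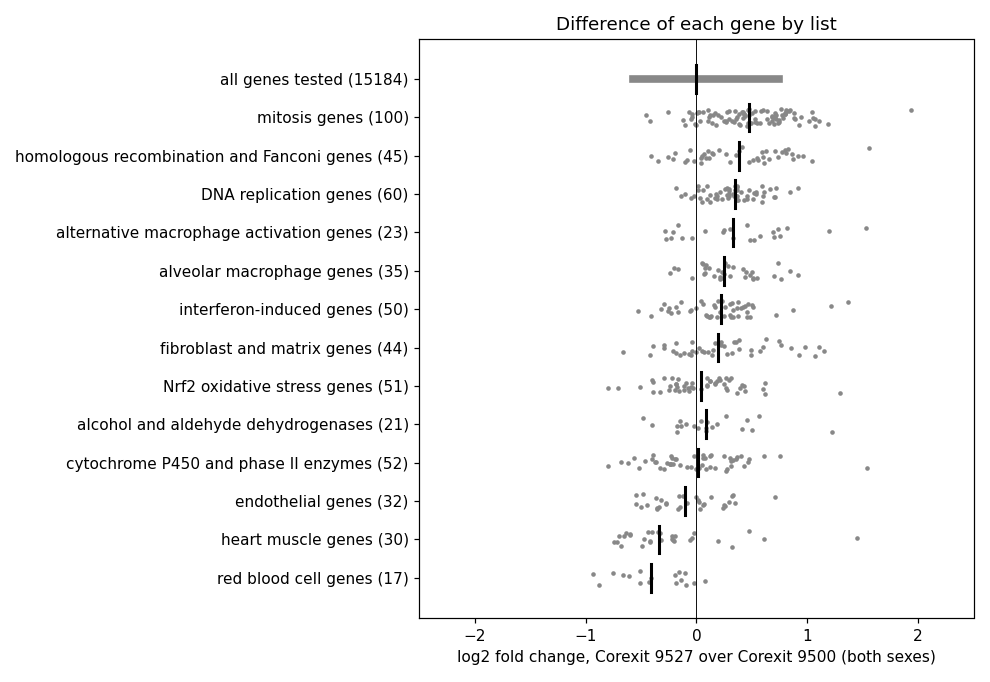
Log2 fold change of Corexit 9527 over Corexit 9500 for each tested gene of 13 lists (points) with the list median (bar), and the 5th to 95th percentile of all genes tested (grey bar on top). The medians run from -0.41 in the red blood cell genes to 0.47 in the mitosis genes, and points of every list lie on both sides of 0.

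The lists of macrophage genes did not move as 1 group. The medians were above 0 for alveolar macrophage and alternative activation genes. They were near or below 0 for monocyte and interstitial macrophage genes and for genes of lipid-loaded macrophages and cholesterol efflux. Of 21 monocyte and interstitial macrophage genes 17 were lower, 1 with an unadjusted p below 0.05 (1.21% of all genes). The median was -0.13, and -0.37 to -0.05 with 0 to 2 lower at that level when 1 mouse was left out. For 32 genes of lipid-loaded macrophages and cholesterol efflux the median was -0.01 (-0.13 to 0.06). Of these 2 were higher at that level (2.10% of all genes), and 1 to 3 when 1 mouse was left out. For 21 matrix metalloproteinases and inhibitors, a list not limited to macrophages, the median was 0.00 (-0.13 to 0.05). Of these 1 was higher at that level, and 1 to 2 when 1 mouse was left out. Mmp12 (ENSMUSG00000049723; chromosome 9, 7344381 to 7369499), the macrophage elastase, was at 60.6, 14.9 and 29.0 CPM in female and 13.3, 15.0 and 7.17 CPM in male mice with Corexit 9500. With Corexit 9527 it was at 88.6, 77.5 and 41.2 CPM in female and 23.4, 55.8 and 24.8 CPM in male mice. The male groups did not overlap and the female groups did, by female Corexit 9500 mouse 7. The log2 fold change was 1.27 (0.45 to 2.09) and the saline mice were at 5.95 to 12.1 CPM. Without female mouse 11 it was 1.27.

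Of 23 genes of alternative macrophage activation 16 were higher, 4 of them (17.4%) at an unadjusted p under 0.05, with a median of 0.33; without female mouse 11 these were 19 of 24, 5 and 0.38. The median was 0.15 with 2 of 23 genes (8.70%) without female Corexit 9527 mouse 10, where 4.41% of all genes were higher at that level. It was 0.25 with 2 genes without male Corexit 9527 mouse 11 (1.30% of all genes) and 0.64 with 9 genes without female Corexit 9500 mouse 7 (2.23%). It was 0.48 and 0.45, with 7 genes each, without female Corexit 9527 mouse 12 (2.83%) and male Corexit 9527 mouse 10 (1.64%). Of 35 alveolar macrophage genes 31 were higher, 5 (14.3%) at that level, and the median of 0.25 was 0.15 without female mouse 11. The count of 5 was 3 without female Corexit 9500 mouse 8 (0.805% of all genes) or 9 (1.28%) or male Corexit 9527 mouse 11 (1.30%), and 9 with voom (7.46%), with a median of 0.14.

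Some members of the macrophage and matrix lists are given here by their own values. Chil3, a secreted chitinase-like protein, had 0.73 (0.13 to 1.34) and Mrc1, the mannose receptor, 0.70 (0.18 to 1.22). Without female mouse 11 Mrc1 was 0.43. Msr1, a scavenger receptor, had 1.07 (0.34 to 1.80), and female mouse 11 was its highest mouse at 25.3 CPM; without that mouse it was 0.71. Among the 44 fibroblast and matrix genes 29 had higher levels, 5 with an unadjusted p below 0.05 (2.10% of all genes). The median of 0.19 was 0.11 without female mouse 11. It was 0.05 with voom, with 6 genes higher (7.46% of all genes) and 3 lower (8.74%) at that level. Without both female mice of low voom weight, Corexit 9527 mouse 11 and Corexit 9500 mouse 7, it was 0.09. The count of 5 was 2 without female Corexit 9500 mouse 7 (2.23% of all genes) or 8 (0.805%) or male Corexit 9500 mouse 9 (1.68%), and 3 without male Corexit 9500 mouse 8 (1.76%). Spp1, osteopontin, had 0.77 (0.25 to 1.29), and Tnc, tenascin C, a matrix protein of wounds, had 1.07 (0.10 to 2.03). Tnc was at 403 CPM in male Corexit 9527 mouse 11 and at most 138 CPM in the other 5 Corexit 9527 mice. Without that male mouse its fold change was 0.55. The unadjusted p was no longer under 0.05 without that mouse, female Corexit 9500 mouse 7 or 8, female Corexit 9527 mouse 10 or male Corexit 9500 mouse 8 or 9, in which the fold change of the other 5 fits was 0.90 to 1.05. Cxcl9, an interferon-induced chemokine, had 1.36 (0.27 to 2.46) and ran from 0.73 to 1.58 over 22 alternative fits. Of 50 interferon-induced genes 37 were higher with a median of 0.22, 3 at an unadjusted p under 0.05 (2.10% of all genes). Without female Corexit 9527 mouse 10, the highest Corexit 9527 mouse for this list, the median was 0.12 with 0 genes at that level, where 4.41% of all genes were. The count was 9 without female Corexit 9527 mouse 12 (2.83% of all genes), 6 without female mouse 11 (2.47%) and 5 without female Corexit 9500 mouse 7 (2.23%). It was 1 without female Corexit 9500 mouse 8 (0.805%), male Corexit 9500 mouse 7 (1.69%) or male Corexit 9527 mouse 11 (1.30%), and the median with voom was 0.14 with 5 genes (7.46%).

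**Figure D3:**
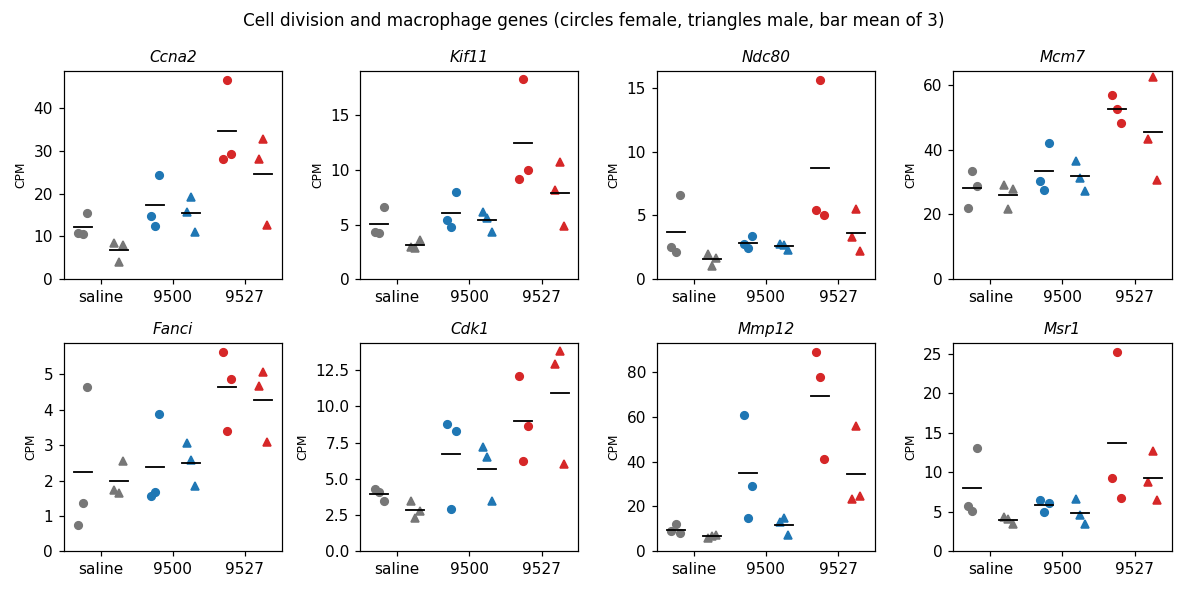
CPM of 8 genes of cell division, replication, repair and macrophages in each mouse (circles female, triangles male, bar mean of 3) for saline, Corexit 9500 and Corexit 9527. In Ccna2 the 3 female Corexit 9527 mice lie at 28.2 to 46.7 CPM, above the 12.4 to 24.5 CPM of female Corexit 9500 mice, while the males overlap.

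A set of 15 genes was named for being higher in every Corexit 9527 mouse of each sex than in every Corexit 9500 mouse of that sex, so their separation is no finding; 70 of the tested genes (0.461%) were so separated, and 72 (0.474%) in the other direction. Their log2 fold changes ran from 0.35 in Atp8b1, a phospholipid flippase, to 1.2 in Hpgds, a prostaglandin D synthase. The others were Cnot1, Clec4a2, Cfl2, Tfrc, Naa20, Ctss, Hyls1, Morf4l2, Gfm1, Nsa2, Socs6, Ybx3 and Mitd1. Tfrc, the transferrin receptor that dividing cells use for iron, was at 84.0, 88.4 and 88.2 CPM in female and 80.5, 67.7 and 71.1 CPM in male mice with Corexit 9527. With Corexit 9500 it was at 54.4, 52.2 and 69.2 CPM and 62.5, 63.3 and 44.2 CPM, and its log2 fold change was 0.47 (0.16 to 0.78). Ctss, a lysosomal protease of macrophages, had 0.55 (0.17 to 0.94).

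Among the genes lower with Corexit 9527 were secreted ligands, receptors and a potassium channel. Colq (ENSMUSG00000057606; chromosome 14, 31523082 to 31591343), the collagen tail of acetylcholinesterase, was at 34.6, 56.0 and 41.5 CPM in female and 28.5, 38.7 and 38.3 CPM in male mice with Corexit 9500, and at 22, 36.9 and 14.7 CPM and 17.3, 18.1 and 19.1 CPM with Corexit 9527. The male groups did not overlap, a condition of its naming from the male mice, and the female groups did. The log2 fold change was -0.90 (-1.37 to -0.42), the smallest p of any gene tested. Kcnk3, a leak potassium channel of vascular smooth muscle, had -0.94 (-1.69 to -0.19). Female mouse 11 at 5.58 CPM was far below the other Corexit 9527 mice at 28.5 to 35.0 CPM; without it the difference was -0.70.

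Bmp6 (ENSMUSG00000039004; chromosome 13, 38345107 to 38500302), a bone morphogenetic protein, was at 145, 187 and 141 CPM in female and 161, 163 and 168 CPM in male mice with Corexit 9500. With Corexit 9527 it was at 114, 106 and 97.6 CPM and 138, 104 and 130 CPM, so the groups of both sexes were apart. Its log2 fold change was -0.49 (-0.77 to -0.20). The other genes named for standing apart in this direction, from -0.41 in Lfng to -0.98 in Wnt4, were Zdhhc14, Jup, Scube2, Mapt, Hes1, Fgfr4, Chad, Wnt2, Mapk10, Ppp1r14a and Alox12. Wnt4 and Wnt2 are secreted Wnt ligands, Hes1 is a Notch target and Lfng a modifier of Notch receptors, and Fgfr4 is a receptor of fibroblast growth factors. Wnt4 without female mouse 11 was at -0.74, and it ran from -1.07 to -0.49 over 22 alternative fits. Of 32 endothelial genes 18 were lower, and 2, Sox18 and Cdh5, had an unadjusted p under 0.05 (1.21% of all genes were lower there). Leaving out 1 mouse gave 0 to 3, the 3 without female mouse 11 (2.68% of all genes). With voom 25 were lower, 8 of them at that level, where 8.74% of all genes were, and without both female mice of low voom weight 26 and 8, where 5.98% were.

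**Figure D4:**
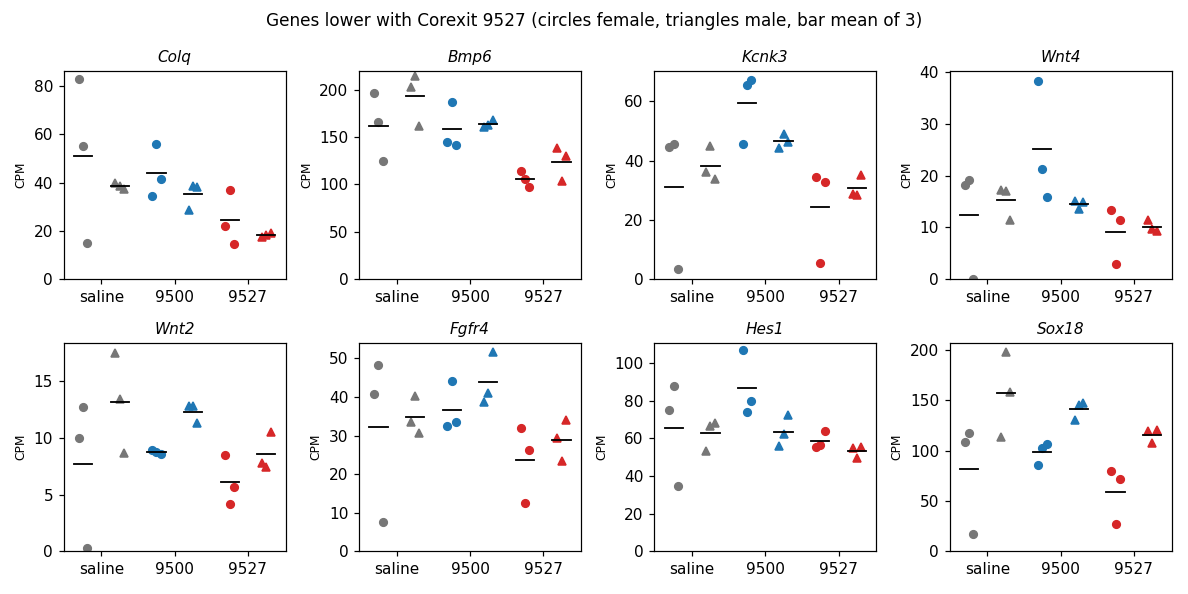
CPM of 8 genes lower with Corexit 9527 in each mouse (circles female, triangles male, bar mean of 3) for saline, Corexit 9500 and Corexit 9527. Bmp6 lies at 97.6 to 138 CPM with Corexit 9527 and at 141 to 187 CPM with Corexit 9500, while female Colq overlaps.

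The genes that oxidise and conjugate solvents had medians near 0. Of 21 alcohol and aldehyde dehydrogenases 0 reached an unadjusted p under 0.05 in either direction, as did 0 of 52 cytochrome P450 and phase II genes and 0 of 14 aryl hydrocarbon receptor genes. The medians were 0.08, 0.01 and 0.14. With 1 mouse left out 0 to 2 cytochrome P450 and phase II genes were higher and 0 to 4 lower at that level, and 0 genes of the other lists. Their 95% intervals lay within -1 and 1 log2 for 13, 29 and 11 genes of these lists; for the rest they reached past -1 or 1. Adh1, an alcohol dehydrogenase, had -0.14 (-0.68 to 0.39) and changed sign without female mouse 11. Cyp1a1, the classical target of the aryl hydrocarbon receptor, had 1.54 (-0.39 to 3.46). Male Corexit 9527 mouse 12 was at 246 CPM. The other 5 Corexit 9527 mice were at 3.07 to 11.6 CPM, and without that mouse the value was -0.08. Hmox1, heme oxygenase, had 0.10 (-0.59 to 0.79).

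Of 51 Nrf2 oxidative stress genes 26 had higher levels, and 3 higher and 2 lower ones had an unadjusted p below 0.05, with a median of 0.04 that took either sign when 1 mouse was left out, beside 2.10% higher and 1.21% lower of all genes. The lower count was 0 to 2 when 1 mouse was left out, except for 4 without male Corexit 9527 mouse 12 (1.86% of all genes). Without both female mice of low voom weight 35 were higher and 16 lower. Of these, 10 higher (6.25% of all genes) and 1 lower (5.98%) had an unadjusted p below 0.05. Slc7a11, the cystine transporter, had 1.30 (0.39 to 2.21), and Gclc, which makes the first step to glutathione, had 0.61 (0.17 to 1.06). Over 22 alternative fits Slc7a11 ran from 0.79 to 1.57 and Gclc from 0.45 to 0.71. Of 17 red blood cell genes 16 were lower, 0 at that level, with a median of -0.41, and -0.28 without female mouse 11. It was -0.23 without female Corexit 9500 mouse 7 and -0.27 without female Corexit 9500 mouse 9. Without male Corexit 9527 mouse 12 it was -0.62, with 3 genes lower at that level, where 1.86% of all genes were. With voom 17 of 17 were lower, 8 of them (47.1%) at that level, where 8.74% of all genes were, with a median of -0.55. The median was -0.20 over 19 genes with no filter on low counts and -0.21 over 13 genes with at least 10 counts in every mouse. Their summed level was 683 to 6610 CPM with Corexit 9527 and 3590 to 10100 CPM with Corexit 9500. The 30 tested heart muscle genes were also lower in 25 cases, with a median of -0.34 and 1 lower at that level (1.21% of all genes). The median was -0.21 without male Corexit 9527 mouse 11 and -0.28 without female mouse 11. The count of 1 was 4 without male Corexit 9527 mouse 12 (1.86% of all genes) and 7 with voom (8.74%). The summed level of the heart muscle genes was 332 to 642 CPM with Corexit 9527 and 542 to 800 CPM with Corexit 9500. Female mouse 11 had the lowest mean log2 CPM of the Corexit 9527 mice for the heart muscle genes (1.84) and the red blood cell genes (3.44). The part of blood and heart tissue in the other results was not tested. Of 43 immediate early genes 30 were lower, and Dusp1 had -0.74 (-1.36 to -0.11), but the median of -0.12 was -0.03 without female mouse 11 and -0.22 without female Corexit 9527 mouse 10. Without both female mice of low voom weight it was 0.00, with 22 higher and 21 lower, and Dusp1 was -0.40 there and -0.34 with voom.

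**Figure D5:**
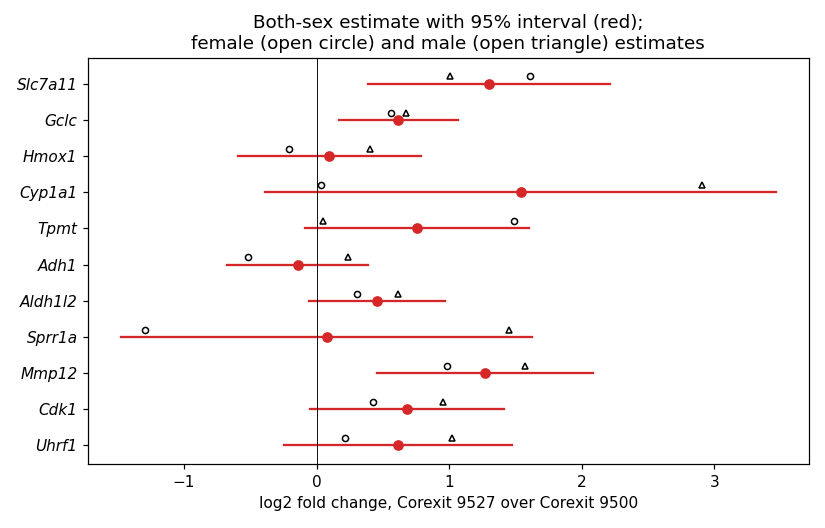
Log2 fold change of 11 genes of detoxification, injury and division, with the both-sex estimate and its 95% interval in red and the female (open circle) and male (open triangle) estimates. Cyp1a1 has the widest interval, -0.39 to 3.46, and 8 of the 11 have estimates on the same side of 0 in both sexes.

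Sprr1a (ENSMUSG00000050359; chromosome 3, 92483952 to 92485895), a squamous epithelial protein of injured airway, was higher than in every saline mouse in all mice of both dispersants, and the levels of the dispersants overlapped. It was at 78.8, 7.5 and 35.2 CPM in female and 18.8, 10.8 and 3.09 CPM in male mice with Corexit 9500, and at 24, 10.7 and 15.2 CPM and 30.3, 41.9 and 16.1 CPM with Corexit 9527, whereas saline mice were at 1.21 to 2.57 CPM. Over saline the log2 fold change was 3.8 (2.93 to 4.66) for Corexit 9527, with an edgeR adjusted p of 0.012. For Corexit 9500 it was 3.72 (2.39 to 5.05), an interval that leaves out 0, with an edgeR adjusted p of 0.882. Without female saline mouse 3 these were 3.96 (adjusted p = 0.00948) and 3.76 (adjusted p = 0.617). The difference between the dispersants themselves was 0.08 (-1.48 to 1.63). Its fold change was -1.29 in female and 1.45 in male mice, with an adjusted p of 0.979 for the interaction of sex and dispersant. That interaction had 0 of 15418 genes at an adjusted p under 0.05, with 242 at an unadjusted one, and DESeq2 called 6.

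Within each sex no gene passed adjustment with edgeR. DESeq2 called 7 in male and 3 in female mice, and voom called 1 in female mice. Genes with the smallest edgeR p of each sex, among those whose groups of that sex did not overlap, are described here. Their separation in that sex is therefore no finding. In male mice Mbnl2, a regulator of splicing, was at 38.1, 40.2 and 36.7 CPM with Corexit 9500 and 57.5, 63.8 and 53.1 CPM with Corexit 9527. The male log2 fold change was 0.61 (0.38 to 0.85). Il1r1, the receptor of interleukin 1, was at 50.2, 55.7 and 50.6 CPM in the same males with Corexit 9500 and 63.0, 73.2 and 71.5 CPM with Corexit 9527. Tln2, talin 2, an adaptor of integrins, had a male value of -0.62 (-0.92 to -0.32). These genes were named for male groups that did not overlap, and the female intervals of Il1r1 and Tln2 held 0.

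In female mice Cd248, endosialin, a surface protein of pericytes and fibroblasts, was at 50.4, 45.1 and 38.9 CPM with Corexit 9500 and 21.5, 15.7 and 14.8 CPM with Corexit 9527. The female log2 fold change was -1.37 (-2.14 to -0.60), and the male value was -0.09 (-0.56 to 0.39). Skap2, an adaptor of leukocyte adhesion, was at 5.64, 9.97 and 9.17 CPM in female mice with Corexit 9500 and 18.0, 48.1 and 32.8 CPM with Corexit 9527. Both genes were named for female groups that did not overlap. Skap2 had a female value of 2.00 (0.87 to 3.12) and a male value of 0.21 (-0.21 to 0.62), with female mouse 11 the highest at 48.1 CPM. For the interaction of sex and dispersant the adjusted p was at least 0.979 for every gene.

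With oil added, the mitosis genes had a lower mean with 9527+oil than with 9500+oil in female mice and a similar one in male mice. The sexes were not tested apart for these genes. Their mean log2 CPM was 2.28, 2.73 and 2.16 in female and 2.11, 2.18 and 2.10 in male mice with 9500+oil, and 2.08, 1.75 and 2.23 and 2.27, 1.91 and 2.18 with 9527+oil. The groups overlapped in both sexes, and the highest mouse, at 2.73, was female 9500+oil mouse 14. Between the 9527+oil and 9500+oil mice 0 of 15126 genes passed, with 93 higher (0.615%) and 175 lower (1.16%) at an unadjusted p under 0.05, and DESeq2 called 1. Of 99 mitosis genes tested there, 78 were lower, 8 at that level, with a median of -0.28. Without female 9500+oil mouse 14, 77 were lower, 5 at that level, with a median of -0.12. Without that mouse 214 of all genes (1.40%) were higher and 236 (1.55%) lower at that level. The interaction of oil and dispersant had 0 of 15420 genes at an adjusted p under 0.05, DESeq2 called 3, and its lowest adjusted p was 0.502. For the mitosis genes the interaction had a median of -0.74, with 86 of 100 lower and 42 at an unadjusted p under 0.05, where 7.69% of all genes were lower and 1.62% higher. Without the 2 mice with many mitochondrial counts, the median was -0.48 with 93 lower and 19 at that level, where 1.81% of all genes were lower and 1.54% higher. Ccna2 was at 9.12 to 24.3 CPM with 9500+oil and 6.89 to 11.4 CPM with 9527+oil. Its interaction was -1.32 on the log2 scale, at an unadjusted p under 0.05 and with an adjusted p of 0.502.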

How the data were processed

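Lungs of 36 mice were profiled by RNA sequencing, and the 12 mice given a dispersant alone are compared here. Per the labels and the paper, the authors estimated reads per GRCm38 transcript with Salmon and combined them with tximport. They deposited expected counts per gene symbol, already whole numbers, for female (18120 rows) and male mice (18295 rows). The 17716 names in both tables were used, and 4 rows of each table that share a name, with 0.0103% and 0.0128% of counts, were left out. Quasi-likelihood tests (edgeR 4.0.16, R 4.3.3) used TMM, filterByExpr and sex as a covariate, with Benjamini-Hochberg adjustment over all genes tested. The standard error is the log2 fold change over the square root of F. CPM are counts over effective library size, set over 30 mice of 5 groups without the mice given oil alone, and log2 CPM use a prior count of 2.

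The 47 lists hold 1406 symbols, 1340 of them in the tables and 1290 tested. Members and lists were chosen with earlier results of these data known. Genes were named in several ways. The first were the 15 with the smallest p in each direction. They had to reach a mean of 1 log2 CPM and an unadjusted p under 0.05. They could not overlap between dispersants in either sex or be predicted or clone-named genes. Each list gave up to 4 members at an unadjusted p under 0.05, or the 1 with the smallest p. In each sex the 3 per direction with the smallest p were named under the same limits, with no overlap required in that sex alone. The 3 per interaction with the smallest p and 7 genes set by name were added. Ttk was named after its values were seen. 1 gene that the rule named is not reported here. Identifiers are from GENCODE M21 and promoters from RefSeq.

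Counts of 12 pairs of mice of the same sex and dispersant gave a mean chi-square per gene of at least 19.6, above sampling noise, and every mouse was counted as 1 sample. The sources used here do not say which mice shared a cage or litter. Alternatives were DESeq2 1.42.0, other normalizations and filters, limma 3.58.1 (voom with sample quality weights), a fit of all 36 mice and each mouse left out. The tests were checked on simulated data.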

Additional observations from a re-analysis of the deposited data

Results flagged for a closer look

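Each measure was checked for 1 mouse far from the other 5 of its dispersant (Dixon's test at 95%, 6 mice of both sexes), for 114 groups of values; chance flags about 1 in 20 groups. There were 28 flags, and 18 of them came from female Corexit 9527 mouse 11. In that mouse the percent of counts on mitochondrial genes was 38.4, and the log2 ratio of counts on GC-rich over GC-poor genes was -2.68. The mean log2 CPM of the mitochondrial genome genes was 13.5.

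The same mouse was flagged, as mean log2 CPM over the tested members, for surfactant and alveolar type 2 genes (8.27), fat cell genes (1.4), matrix metalloproteinases and inhibitors (3.71) and monocyte and interstitial macrophage genes (3.45). It was also flagged for complement genes (4.19), heme and iron handling genes (4.54), alcohol and aldehyde dehydrogenases (4.09) and Nrf2 oxidative stress genes (4.79). Sterol and fatty acid synthesis genes (4.79), lipid-loaded macrophage and cholesterol efflux genes (5.18), p53 target genes (4.44) and immediate early genes (3.71) were flagged in it as well, as were hypoxia and glycolysis genes (4.24), lysosome and phagosome genes (5.58) and Adh1, at 75.8 CPM.

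Male Corexit 9527 mouse 12 was flagged for Cyp1a1, at 246 CPM, for the aryl hydrocarbon receptor genes (4.96), and, as the lowest of the 6, for the mitosis genes (2.54) and the PCR genes of the study (2.3). Female Corexit 9527 mouse 10 was flagged for the interferon-induced genes (5.17). Female Corexit 9500 mouse 7 was flagged for alveolar type 1 genes (8.74), CXC and CC chemokines (3.27) and alcohol and aldehyde dehydrogenases (4.16). Female Corexit 9500 mouse 9 was flagged for B cell and plasma cell genes (3.63) and for Uhrf1, at 44.5 CPM.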

How the results depend on the processing

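No paired analysis was possible because the mice of the 2 dispersants share no mouse numbers. Over both sexes the count at an adjusted p under 0.05 was 0 under every alternative run except voom with quality weights, which called 2 genes. The count at an unadjusted p under 0.05, 503, was 859 with DESeq2, 2459 with voom (1132 higher, 1327 lower; 319 and 184 with edgeR), 1000 with all 36 mice in one fit and 1887 without the 2 female mice of the lowest voom weight (Corexit 9527 mouse 11 and Corexit 9500 mouse 7). It ran from 220 (without female Corexit 9500 mouse 8) to 932 (without female Corexit 9527 mouse 10) when 1 mouse was left out, and was 794, with 381 higher and 413 lower, without female Corexit 9527 mouse 11. It was 318 and 307 without female Corexit 9500 mouse 9 and male Corexit 9527 mouse 11, and 767 without male Corexit 9527 mouse 12. DESeq2 called 7 genes in male and 3 in female mice, 6 for the interaction of sex, 1 with oil and 3 for the interaction of oil and dispersant; voom called 1 in female mice. The mitochondrial share was 4.67 percentage points higher with Corexit 9527 (exact permutation test within sex, two-sided p = 0.615), and from -0.391 without female Corexit 9527 mouse 11 to 7.56 when 1 mouse was left out.

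Of 2548 values of 116 named genes under the alternatives, 2535 kept their direction. When 1 mouse was left out Cyp1a1 ran from -0.083 (without male Corexit 9527 mouse 12) to 1.83, and its highest value under any alternative was 2.61. Hmox1 ran to 0.318 and was -0.114 and -0.006 without female Corexit 9527 mouse 10 and male Corexit 9500 mouse 9. Adh1 ran from -0.204, and was 0.183 with voom, 0.021 and 0.038 without female Corexit 9500 mouse 7 and Corexit 9527 mouse 11, and 0.171 without both. Sprr1a, 0.08 in the both-sex fit, was 1.13 with voom, 0.817 without both mice of low weight and at most 0.616 with 1 mouse left out, and was -0.157 without a sex term and -0.063, -0.170, -0.331, -0.032 and -0.186 without female Corexit 9500 mouse 8, male Corexit 9500 mice 8 and 9 and male Corexit 9527 mice 10 and 11. The cause was not tested. The median of the mitosis genes ran from 0.37 to 0.61 when 1 mouse was left out. Leaving out both mice of low weight, female 9500+oil mouse 14, that mouse with Corexit 9527 mouse 11, or female saline mouse 3 was chosen after seeing the data.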
